A study of Mus musculus with 6 samples.

Results

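The insulin-like growth factor (IGF) system was followed in mouse urogenital ridges, the embryonic tissue that gives rise to gonad and mesonephros, with and without the Wilms tumour gene Wt1. Its members were chosen by gene symbol, with earlier results of these data known: the ligand gene Igf1, the receptor genes Igf1r and Insr, the adaptor gene Irs1 and the binding protein genes Igfbp2 to Igfbp7. Of these 10 genes, 8 were represented, by 10 of the 20289 probes of the array, and Irs1 and Igfbp2 were not analysed here. Igf1r and Igfbp5 each had a pair of probes. The knockout (KO) embryos were of the Mf1 strain and homozygous for a deletion of Wt1, and the wild-type (WT) embryos were Mf1 as well. The deletion was not limited to a cell type in the labels. Each array carried labelled RNA from ridges of 5 embryos, 4 female and 1 male, at E11.5 (embryonic day) with 11 to 12 tail somites, just before the sexes diverge. There were 3 KO arrays and 3 WT arrays. Pooling hides the differences between embryos. The labels leave unsaid whether each array had a pool of its own, and the p-values then describe the scatter among these arrays, which may be technical only.

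IGF1 is a secreted growth factor that binds the IGF1 receptor, a receptor tyrosine kinase closely related to the insulin receptor, and both receptors pass the signal through docking proteins such as IRS1 to PI3K, AKT and the Ras pathway. The IGF binding proteins hold IGFs outside the cell, where they lengthen their life and limit or deliver their access to receptors. Proteases cut the binding proteins and so free the ligand. In mice, the receptors of the insulin family are jointly needed for the formation of adrenals and for testis determination.

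Signal was read as deposited intensity on a linear scale, in arbitrary units in which each array has a median between 0.956 and 0.966. It compares genotypes on the same probe but not 1 probe with another. Over all 6 arrays, 15062 probes were bright enough to be tested with limma, and a probe was called at an adjusted p under 0.05 (Benjamini-Hochberg over all tested probes, two-sided). Calls were frequent: 41.3% of tested probes passed, 24.1% as higher and 17.2% as lower in KO ridges. Across the tested probes the log2 change had a median of 0.09. The brighter Wt1 probe (2836) had 14.3, 15.7 and 14.2 in KO ridges, against 44.1, 43.6 and 39.1 in WT ridges. The labelled tissue carried transcripts of the gonadal primordium such as Lhx9 and Nr5a1 and of the nephric duct such as Gata3, at mean intensities of 1.12, 2.11 and 16.7 in KO ridges and 4.23, 2.78 and 9.64 in WT ridges (n = 3 each). Total RNA of a dissected ridge cannot separate fewer cells of a type from less RNA per cell.

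Within the IGF system, the ligand and the insulin receptor were higher in KO ridges and 4 binding proteins were lower. Of the 10 member probes, 8 were tested and 2 were too dim. Among the tested ones, 2 were called higher (Igf1 and Insr), 5 were called lower (Igfbp3, Igfbp4, Igfbp5, Igfbp7 and 1 of the Igf1r probes), and the other Igf1r probe was not called. The 2 higher calls compare with the background of 24.1% and the 5 lower calls with 17.2%. The median log2 change of the 8 tested member probes was -0.57, against 0.09 over all tested probes. The values of KO and WT arrays did not overlap at 7 of the 8 tested member probes, and at 52.8% of all tested probes. On the same arrays the summed signal of 9 gonadal and coelomic marker genes was 28.2 to 29.5 in KO ridges and 91.6 to 99.7 in WT ridges. That list includes the deleted gene Wt1 and Amhr2, and without both, an alternative chosen after seeing the data, the sum of the other 7 was 13.3 to 13.9 in KO ridges and 23.5 to 23.9 in WT ridges. The summed signal of 7 neural marker genes was 56.2 to 57.6 in KO ridges and 9.6 to 10.4 in WT ridges. Of that sum, Zic1 alone had 27.7 to 30.8 in KO ridges and 1.42 to 1.64 in WT ridges. The part of these shifts in the changes of the IGF system was not tested.

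**Figure D1:**
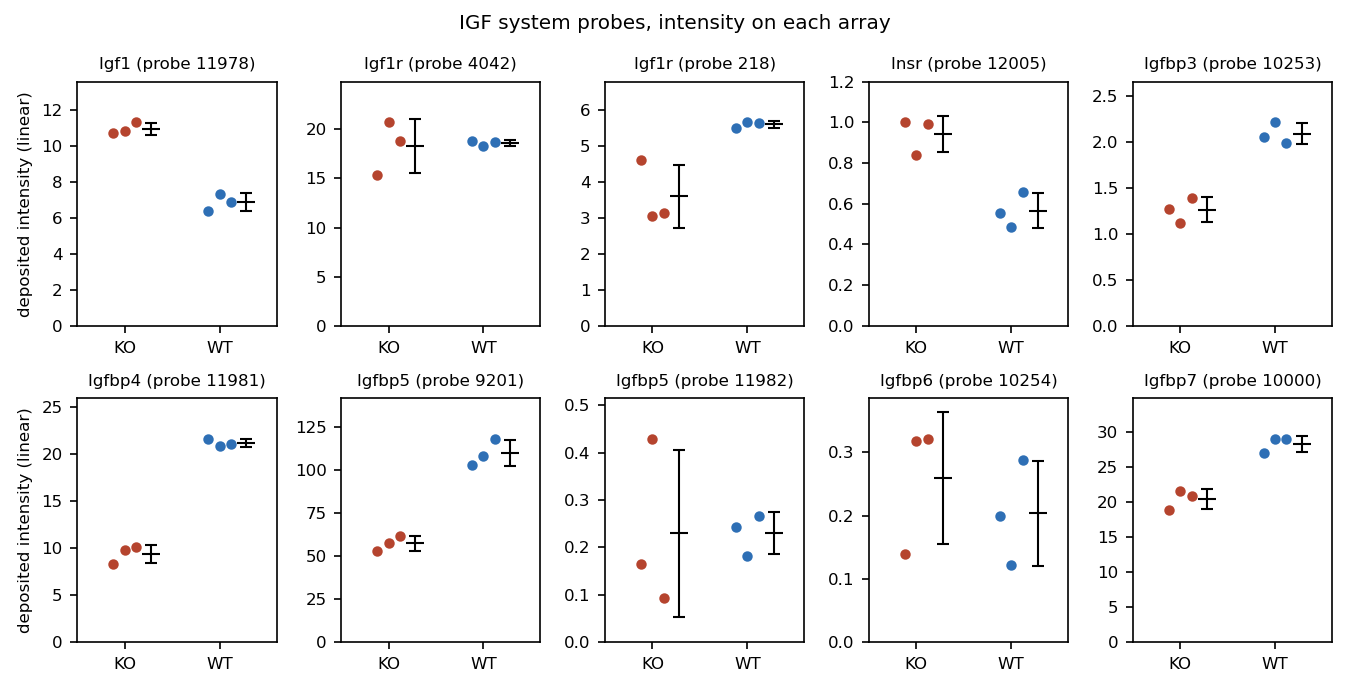
Deposited intensity (linear, arbitrary units) of each IGF system probe, with 1 point per array, KO on the left and WT on the right of each panel, and bars for mean ± SD (n = 3 each). The KO points lie above all WT points for Igf1 and Insr and below them for Igfbp3, Igfbp4, Igfbp7, the bright Igfbp5 probe and the dimmer Igf1r probe, and the points overlap in the other 3 panels.

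The 4 binding protein genes that fell are shown by their promoters, because they moved in the same direction. The sequences run from 250 bases before to 50 bases after the annotated start, 5′ to 3′ on the gene's strand, and are from RefSeq (build GRCm38.p6), where 9 of the 10 member genes were matched and Insr was not. Capitals mark matches to short motifs, searched on both strands. The motif GCGTGGG is the core of GC-rich sites of the kind that WT1 and the related EGR factors bind. The motif GCGGGGG is a like core of EGR sites. The motif GTGGGAG is a core of WT1 sites and can overlap the first of these. The motif TATAAA is the core of a TATA box.
Igfbp3 (chr11:7213874-7214173, minus strand): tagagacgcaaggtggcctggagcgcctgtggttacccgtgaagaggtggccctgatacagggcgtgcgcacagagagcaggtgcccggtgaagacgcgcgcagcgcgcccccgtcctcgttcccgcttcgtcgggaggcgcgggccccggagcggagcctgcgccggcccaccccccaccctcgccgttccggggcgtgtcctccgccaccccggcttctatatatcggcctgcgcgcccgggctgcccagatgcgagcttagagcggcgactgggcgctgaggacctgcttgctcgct
Igfbp4 (chr11:99040994-99041293, plus strand): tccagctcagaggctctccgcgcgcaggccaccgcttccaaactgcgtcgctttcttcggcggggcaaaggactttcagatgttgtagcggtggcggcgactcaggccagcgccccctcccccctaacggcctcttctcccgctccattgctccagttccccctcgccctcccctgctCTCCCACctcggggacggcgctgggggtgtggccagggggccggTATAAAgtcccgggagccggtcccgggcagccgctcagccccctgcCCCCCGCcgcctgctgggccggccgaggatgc
Igfbp5 (chr1:72874816-72875115, minus strand): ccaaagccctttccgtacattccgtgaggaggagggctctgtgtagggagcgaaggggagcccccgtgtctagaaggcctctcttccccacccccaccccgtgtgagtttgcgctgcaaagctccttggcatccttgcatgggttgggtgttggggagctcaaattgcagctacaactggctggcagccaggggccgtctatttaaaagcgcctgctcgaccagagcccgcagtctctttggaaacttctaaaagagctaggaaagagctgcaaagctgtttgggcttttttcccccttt
Igfbp7 (chr5:77407996-77408295, minus strand): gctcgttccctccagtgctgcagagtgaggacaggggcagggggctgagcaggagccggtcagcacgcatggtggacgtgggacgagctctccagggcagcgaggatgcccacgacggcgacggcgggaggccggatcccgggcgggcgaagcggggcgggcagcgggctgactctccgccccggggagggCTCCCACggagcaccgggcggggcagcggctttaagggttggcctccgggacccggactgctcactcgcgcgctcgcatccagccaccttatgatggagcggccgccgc

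These promoters differed in composition. The Igfbp3, Igfbp4 and Igfbp7 promoters held 71.7%, 71.3% and 73.3% G and C, with 37, 27 and 33 CpG dinucleotides. The Igfbp5 promoter held 56.3% G and C and 10 CpG dinucleotides, nearer to the medians of 52.7% and 7 over all 32851 promoters in the table. At least 1 of the 3 GC-rich motifs stood in 2 of the 4 promoters, Igfbp4 and Igfbp7, and in 22.4% of all promoters. Those 2 held more G and C than 92.2% and 94.5% of all promoters, and the shares over all promoters are not matched for this. GTGGGAG alone was present in 9.73% of all promoters, GCGGGGG in 10.8% and GCGTGGG in 5.04%. TATAAA was found in the Igfbp4 promoter, 28 bases before the start (position -28), and in 13.6% of all promoters. The Igfbp3 and Igfbp5 windows held no exact match to any of these motifs. Variant forms were not searched, so a TATA-type element of another sequence is not excluded there. Among the promoters that are not shown, that of Igfbp6, for which no change was detectable, held GTGGGAG and TATAAA. That TATAAA lay at position -148 on the opposite strand, away from the usual place of a TATA box. The Igf1r promoter had 2 matches to GCGGGGG, and the Igf1 promoter had none of the 4 motifs. Of the genes not analysed here, Igfbp2 had 4 matches to GCGGGGG in one of its promoters and Irs1 had 1 to GCGTGGG.

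Igf1, the secreted ligand, was higher in KO ridges. Its intensities were 10.7, 10.8 and 11.3 in KO ridges, against 6.35, 7.33 and 6.89 in WT ridges. Every KO array lay above every WT array, and the KO arrays were closely spaced. The means were 10.9 ± 0.337 in KO ridges and 6.86 ± 0.495 in WT ridges (SD, n = 3 each), a 1.6-fold gain with a log2 change of 0.68 ± 0.08 (SE, limma adjusted p = 3.98e-05). The change lay at the 93.6th percentile of the changes of all tested probes.

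Insr, the receptor for insulin, which also binds IGF2 in one of its splice forms, was higher as well. The intensities were 1.0, 0.841 and 0.989 in KO ridges, against 0.556, 0.487 and 0.656 in WT ridges, without overlap between genotypes. The means were 0.944 ± 0.0888 in KO ridges and 0.566 ± 0.0852 in WT ridges (SD, n = 3 each). The fold was 1.67, with a log2 change of 0.74 ± 0.17 (SE) and a 95% confidence interval of 0.38 to 1.10 (limma adjusted p = 0.00365). With log2 of intensity plus 0.5, which shrinks changes of low signals, it was 0.44 (limma adjusted p = 0.00334).

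The probes of Igf1r, the main receptor for IGF1 and IGF2, did not behave alike. On the dimmer probe (218), the intensities were 4.6, 3.05 and 3.13 in KO ridges, against 5.49, 5.65 and 5.63 in WT ridges. All KO arrays were lower, and KO array 1 stood between the other KO arrays and the WT arrays. The log2 change on that probe was -0.66 ± 0.13 (SE), or 63.2% of the WT level (limma adjusted p = 0.00201). Without KO array 1 it was -0.85 (limma adjusted p = 6.53e-08).

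On the brighter Igf1r probe (4042), the intensities were 15.3, 20.7 and 18.8 in KO ridges, against 18.8, 18.3 and 18.7 in WT ridges. KO array 1 was the lowest of the 6 arrays and KO array 2 the highest, so the genotypes overlapped. The log2 change was -0.04 with a 95% confidence interval of -0.26 to 0.18 (limma adjusted p = 0.791), and 0.09 without KO array 1. The log2 difference between the brighter and the dimmer probe was 1.73, 2.76 and 2.59 on the KO arrays, against 1.77, 1.70 and 1.73 on the WT arrays. It was thus alike on all WT arrays and KO array 1, and larger on KO arrays 2 and 3. The mean difference between genotypes was 0.62 (two-sided exact permutation test, p = 0.3, where 0.1 is the smallest p that 3 arrays against 3 allow), and 0.94 without KO array 1. The position of either probe in the transcript is not given in the sources used here, so no level of Igf1r as a whole is stated.

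The balance between the receptors was compared within arrays, where a constant scaling factor cancels but a shift that depends on intensity does not. The log2 ratio of Igf1r (brighter probe) to Insr was 3.93, 4.62 and 4.25 on the KO arrays, against 5.08, 5.24 and 4.83 on the WT arrays. It was lower on every KO array, by a mean of -0.78. The difference was -0.91 after quantile normalization and -0.47 with log2 of intensity plus 0.5. The exact permutation p was 0.1, the smallest this design allows, and 0.167 after adjustment over the 5 ratios computed. The ratio shows unequal change of the 2 probes and not which receptor protein prevailed.

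Igfbp4, a binding protein that mostly withholds IGFs from their receptors, had the largest change among the members. Its intensities were 8.31, 9.83 and 10.1 in KO ridges, against 21.6, 20.8 and 21.0 in WT ridges. The highest KO value, 10.1, lay far below the lowest WT value, 20.8. The means were 9.41 ± 0.956 in KO ridges and 21.1 ± 0.433 in WT ridges (SD, n = 3 each), which left 44.4% of the WT level. The log2 change of -1.17 ± 0.08 (SE, limma adjusted p = 1.51e-06) was at the 1.99th percentile of all tested probes, and 3.12% of tested probes were called with a loss of at least 2-fold.

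Igfbp5, a binding protein that also attaches to extracellular matrix, fell on its bright probe (9201), which lay at the 97.7th percentile of mean signal. The intensities were 53.0, 57.8 and 61.5 in KO ridges, against 103, 108 and 118 in WT ridges. No KO array came near the WT arrays. The means were 57.4 ± 4.28 in KO ridges and 110 ± 7.68 in WT ridges (SD, n = 3 each), or 52.4% of the WT level. The log2 change was -0.93 ± 0.08 (SE, limma adjusted p = 6.72e-06). Scaling between arrays moved this bright probe more than the other member probes: the change was -1.22 after quantile normalization and -1.19 after cyclic loess.

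The second Igfbp5 probe (11982) was too dim to be tested. It read 0.166, 0.429 and 0.0936 in KO ridges, against 0.243, 0.182 and 0.267 in WT ridges, and the mean of its log2 values lay just under that of the limit, an intensity of 0.217. The KO values lay on both sides of the WT values. With no filter on dim probes its log2 change was -0.28 ± 0.51 (SE, limma adjusted p = 0.733), and without KO array 3 it was 0.23.

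Igfbp3, the main carrier of IGFs in the blood of later life, had 1.27, 1.12 and 1.39 in KO ridges, against 2.05, 2.21 and 1.99 in WT ridges. All KO arrays were lower. The means of 1.26 ± 0.137 in KO ridges and 2.08 ± 0.111 in WT ridges (SD, n = 3 each) gave a log2 change of -0.73 ± 0.11 (SE, limma adjusted p = 0.000256), or 60.4% of the WT level.

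Igfbp7, a related secreted protein with only weak affinity for IGFs and a place in vessel walls and matrix, fell least. Its intensities were 18.9, 21.6 and 20.8 in KO ridges, against 27.0, 29.0 and 28.9 in WT ridges. The genotypes did not overlap. The means were 20.5 ± 1.36 in KO ridges and 28.3 ± 1.13 in WT ridges (SD, n = 3 each), or 72.2% of the WT level. The log2 change was -0.47 ± 0.07 (SE, limma adjusted p = 0.000412). After quantile normalization it was -0.65.

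Igfbp6, which prefers IGF2 as ligand, was too dim to be tested. It read 0.139, 0.318 and 0.321 in KO ridges, against 0.2, 0.122 and 0.288 in WT ridges. The genotypes overlapped over nearly their whole range. With no filter on dim probes the log2 change was 0.34 ± 0.45 (SE, limma adjusted p = 0.622), so no change was detectable at this signal. It was 0.74 without KO array 1 and 0.01 without WT array 2.

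By the size of the fall, the order ran from Igfbp4 through Igfbp5 and Igfbp3 to Igfbp7. Against Igfbp4 and Igfbp7, the log2 ratio of Igfbp3 did not overlap between genotypes. For Igfbp3 over Igfbp4 it averaged -2.90 ± 0.22 in KO ridges and -3.34 ± 0.09 in WT ridges, a difference of 0.44. For Igfbp3 over Igfbp7 it averaged -4.02 ± 0.21 in KO ridges and -3.76 ± 0.08 in WT ridges, a difference of -0.26 that shrank to -0.04 after quantile normalization. For Igfbp3 over Igfbp5 the ratios overlapped, with a difference of 0.20 that became 0.53 after quantile normalization. The exact permutation p was 0.1 for the first and second and 0.3 for the third, or 0.167 and 0.3 after adjustment over the 5 ratios, and no p under 0.1 was possible with 3 arrays against 3, so the order has no test that could pass. Igfbp4 and Igfbp5 were not compared in this way. The difference of Igfbp3 over Igfbp7 was -0.04 after quantile normalization, and that of Igfbp3 over Igfbp5 was 0.53.

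**Figure D2:**
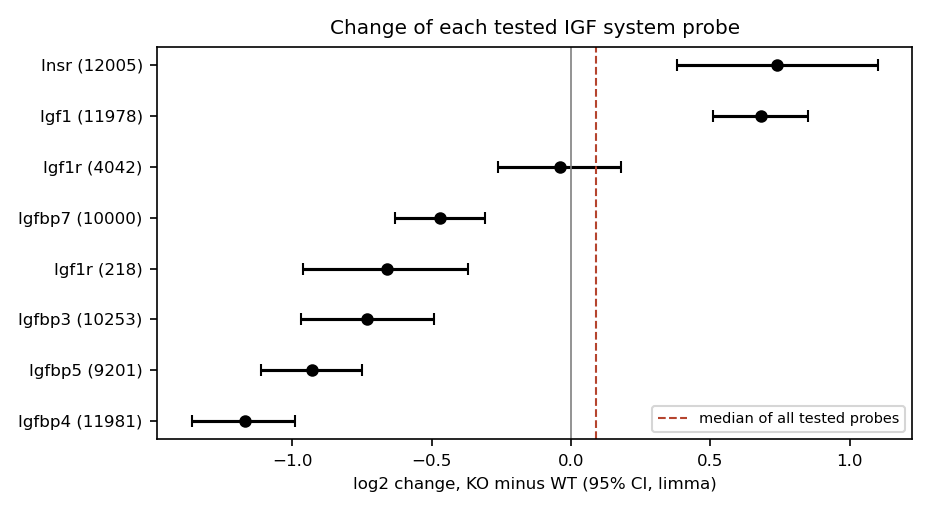
Log2 change, KO minus WT, of the 8 tested IGF system probes with 95% confidence intervals from limma, ordered by size. The dashed line is the median of all tested probes (0.09). Insr and Igf1 lie to its right, the brighter Igf1r probe spans 0, and 5 probes lie wholly below 0, down to -1.17 for Igfbp4.

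**Figure D3:**
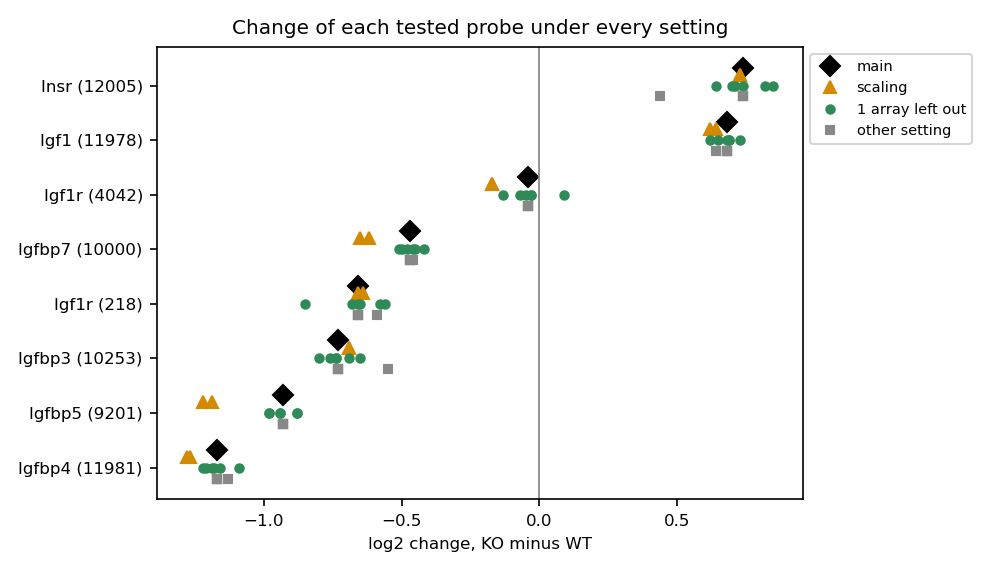
Log2 change, KO minus WT, of the same 8 probes in the reported fit (diamonds), after quantile or cyclic loess normalization (triangles), with 1 array left out (circles) and under other settings (squares). Only the brighter Igf1r probe crosses 0, between -0.17 and 0.09, and Igfbp5, Igfbp4 and Igfbp7 move further below 0 with either normalization.

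The wider pathway was described by 66 further genes, each stood for by its brightest probe. Of these, 54 were on the array and 48 were tested. In KO ridges 7 were higher and 13 lower, against background shares of 24.1% and 17.2%, and 28 were not called. The median log2 change was -0.12, against 0.09 over all tested probes. It was -0.20 after quantile normalization, -0.22 after cyclic loess and -0.05 without KO array 1. After quantile normalization 3 were higher and 15 lower, and after cyclic loess 4 and 16. The background moved as well. Of the 15061 probes tested after quantile normalization, 3043 were higher and 2954 lower. After cyclic loess, 2970 were higher and 3028 lower of 15061. The higher calls lost under quantile normalization were those of Igf2, Grb10, Inppl1 and Eif4ebp1, and the lower calls of Grb14 and Igf2bp1 were lost as well. Lower calls gained under quantile normalization were those of Igf2r, Pik3r1, Rheb and Gsk3b.

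Among the binding partners, proteases and protease inhibitors, 8 of 10 genes were tested, 4 were lower (all of them proteases: Pappa, Adamts1, Adam12 and Htra1), 1 was higher and 3 were not called (median log2 change -0.69). Over all tested probes 17.2% were lower and 24.1% higher. Pappa encodes pappalysin 1, the protease that cuts IGFBP4. On its brightest probe (3764) it had 0.874, 1.33 and 1.10 in KO ridges, against 2.63, 2.59 and 3.16 in WT ridges. It fell to 39.1% of the WT level, with a log2 change of -1.36 ± 0.15 (SE, limma adjusted p = 2.69e-05). A second Pappa probe (399) had a log2 change of -1.82 ± 0.17 (SE), and the third (660) was too dim to be tested. Pappa and Igfbp4 thus both fell.

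Adamts1, a secreted metalloprotease that cuts matrix proteoglycans, averaged 0.833 ± 0.263 in KO ridges and 1.77 ± 0.106 in WT ridges (SD, n = 3 each). Adam12, a metalloprotease that can cut IGFBP3 and IGFBP5, averaged 0.767 ± 0.147 in KO ridges and 1.54 ± 0.214 in WT ridges. Htra1, a secreted serine protease known to cut IGFBP5, fell by 0.64 on the log2 scale. Igfbpl1, which encodes a protein similar to the binding proteins, was the 1 gene of the group that rose, 1.56-fold (limma adjusted p = 0.00941). Stc1 and Stc2, whose products inhibit pappalysins, had log2 changes of -0.07 ± 0.61 and -0.48 ± 0.24 (SE) and were not called.

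Of the other insulin family ligands and receptors, all 8 of the 11 genes that were on the array were tested, 2 were higher, none was lower and 6 were not called. The share of higher genes was near the background of 24.1%. Insl5, a relaxin-family peptide of the gut, averaged 28 ± 3.6 in KO ridges and 15.2 ± 2.96 in WT ridges (SD, n = 3 each), a 1.85-fold gain (limma adjusted p = 0.000216). Igf2, the fetal growth factor, averaged 320 ± 9.04 in KO ridges and 264 ± 5.47 in WT ridges. Its log2 change of 0.28 ± 0.07 (SE, limma adjusted p = 0.0094) turned to -0.07 after quantile normalization and -0.11 after cyclic loess, so its direction rests on the scaling. Igf2r, which takes IGF2 to the lysosome, was not called in the reported fit, with a log2 change of -0.23 (limma adjusted p = 0.0881), and passed as lower after quantile normalization (-0.28, limma adjusted p = 0.0414).

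Among the adaptors and inhibitors at the receptors, 12 of 16 genes were tested, 4 were lower, 1 was higher and 7 were not called (median log2 change -0.14), beside background shares of 17.2% lower and 24.1% higher. Sos1, the exchange factor that turns on Ras, fell to 48.7% of the WT level, with 0.624 ± 0.032 in KO ridges and 1.28 ± 0.038 in WT ridges (SD, n = 3 each, limma adjusted p = 5.78e-05). The docking protein gene Gab1 fell to 67.3% and Grb2, which links receptors to SOS, to 74.4%. Grb14, an inhibitor of the insulin receptor kinase, fell to 80.2%, a call that ended after quantile normalization (limma adjusted p = 0.0608) and after cyclic loess (limma adjusted p = 0.0538). Grb10, another such inhibitor and an imprinted gene, averaged 725 ± 70.3 in KO ridges and 512 ± 19 in WT ridges on its very bright probe. That log2 change of 0.50 became 0.00 after quantile normalization and 0.04 after cyclic loess, and a second, dimmer probe had -0.26 ± 0.14 (SE).

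In the group of PI3K, AKT, mTOR and FOXO genes, 18 of 26 were tested, 3 were higher, 3 were lower and 12 were not called (median log2 change -0.05). In the reported fit these shares were no larger than the background of 24.1% and 17.2%, but they rest on the scaling. Pik3r1, Rheb and Gsk3b were not called in it and passed as lower after quantile normalization (limma adjusted p = 0.0488, 0.0289 and 0.0256). The same 3 passed as lower after cyclic loess (limma adjusted p = 0.0409, 0.0271 and 0.0228). Foxo1, a transcription factor that AKT keeps out of the nucleus, averaged 2.35 ± 0.121 in KO ridges and 4.07 ± 0.161 in WT ridges (SD, n = 3 each), or 57.8% of the WT level. Its log2 change was -0.79 ± 0.08 (SE, limma adjusted p = 2.16e-05). Pik3r2, a regulatory subunit of PI3K, fell by 0.47 on the log2 scale and Pdpk1, the kinase that activates AKT, by 0.28. Tsc1, a brake on mTOR, rose 1.44-fold. Inppl1, a lipid phosphatase, and Eif4ebp1, a repressor of translation, had log2 changes of 0.55 and 0.21, which were 0.17 and 0.02 after quantile normalization (limma adjusted p = 0.078 and 0.809). After cyclic loess Inppl1 was still called (0.21, limma adjusted p = 0.0428) and Eif4ebp1 was not. Akt1, Akt2 and Mtor were not called, with log2 changes of 0.15, 0.19 and 0.06.

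Of the mRNA-binding proteins named for IGF2 mRNA, 2 of 3 genes were tested and both were lower. Over all tested probes 17.2% were lower, and 2 genes are too few for a comparison with that share. Igf2bp3 averaged 3.43 ± 0.4 in KO ridges and 7.57 ± 0.713 in WT ridges (SD, n = 3 each), or 45.3% of the WT level (limma adjusted p = 6.94e-06). Igf2bp1 fell to 73.6% (limma adjusted p = 0.0215). It missed the threshold after quantile normalization (limma adjusted p = 0.0538) and passed after cyclic loess (limma adjusted p = 0.0405).

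**Figure D4:**
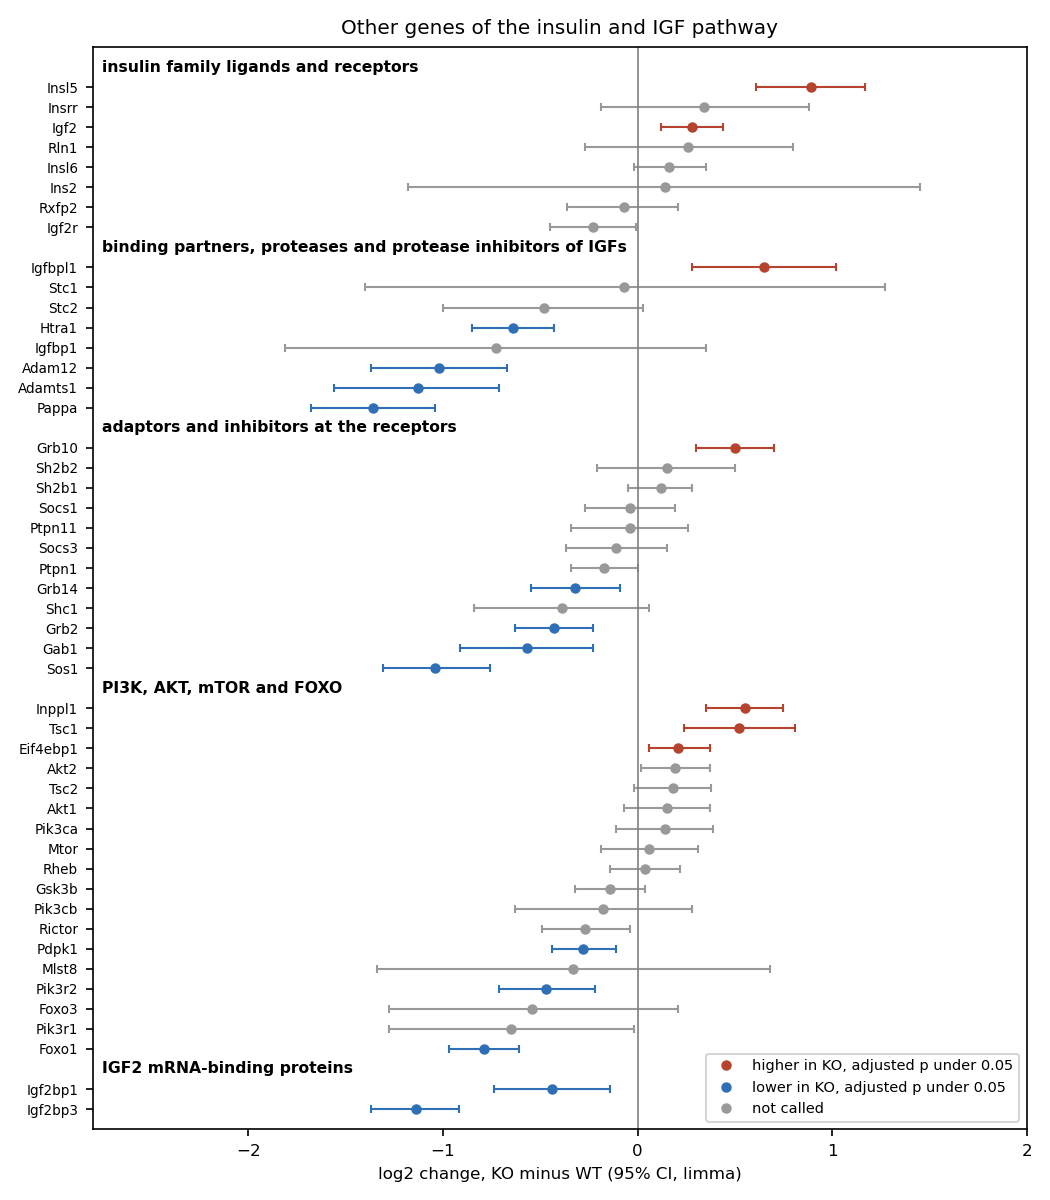
Log2 change, KO minus WT, of the 48 tested pathway genes by group, with 95% confidence intervals from limma, in red where higher and in blue where lower in KO at an adjusted p under 0.05 and in grey where not called. Pappa (-1.36), Igf2bp3 (-1.14), Adamts1 (-1.13) and Sos1 (-1.04) lie furthest to the left.

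Over the 6 arrays, the genes whose log2 signal was most like that of Igfbp4 were Rhog, Slc25a11 and Ubl7, each with Pearson's r = 0.999 among 11867 probes searched. For Insr they were Kdr, 9330159F19Rik and 4833422M21Rik, each with r = 0.993. The arrays form 2 sets of 3 by genotype, so such an r mostly reads the difference between genotypes, and 958 probes exceeded r = 0.95 with Igfbp4 and 165 with Insr.

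Markers of other cell types differed between the same arrays. Over all tested probes 24.1% were higher and 17.2% lower, the shares to set beside the counts of each list. Of the gonadal primordium and coelomic epithelium markers, 7 of 8 tested were lower and none higher, led by Amhr2, Muc16 and Lhx9, while Gata4 was not called. Of the neural tube and neuron markers, all 6 tested were higher, led by Zic1, Dbx1 and Tubb3. Of the skeletal muscle and somite markers, 4 of 6 were higher and none lower, with summed intensities of 26.7 to 28.2 in KO ridges and 16.7 to 18 in WT ridges, led by Tnnc2, Myh3 and Myf5.

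The remaining lists hold 2 to 5 tested genes each, too few to compare with the background of 24.1% higher and 17.2% lower. Nephric duct markers were higher for 2 of 4 tested, Gata3 and Ret, with sums of 30.5 to 33.6 in KO ridges and 24.1 to 25.4 in WT ridges. Endothelial markers were lower for 3 of 5 (Pecam1, Emcn and Tek) and higher for 1 (Kdr), with sums of 65.1 to 66.4 in KO ridges and 63.2 to 66.1 in WT ridges. Of these sums Kdr alone averaged 37.7 in KO ridges and 31.7 in WT ridges, so they do not show the falls of the dimmer markers. Hepatocyte and gut markers were higher for 2 of 5 (Ttr and Rbp4) and lower for 1 (Apoa1), with sums of 14.2 to 14.6 in KO ridges and 7.71 to 7.99 in WT ridges. Of the macrophage markers Aif1 was higher and Adgre1 was not called, with sums of 3.36 to 4.02 in KO ridges and 2.53 to 2.89 in WT ridges. No marker was at 0 on any array, while Dbx1, Foxa2, Cdh5, Myog, Emx1 and Msln stayed below the limit of 0.217 on every WT array.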

How the data were processed

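Biotin-labelled total RNA of pooled ridges was hybridised to single-colour CodeLink Mouse 20k arrays, per the labels and the series design. The deposited values are spot intensity on a linear scale, 1 column per array, without detection flags. Which software, background correction and scaling the authors applied is not given in the sources used here. Between 20077 and 20099 probes had a value on any one array, and 153 to 246 of these were at or below 0. The small number of arrays limits the precision.

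Values under the 5th percentile of positive values (0.0811) were set to it, and log2 was taken. The log2 medians of the arrays differed by 0.0153, under the limit of 0.1 for scaling, so no normalization was added. A tested probe had values on 2 or more arrays per genotype and a mean log2 value over all arrays above the 25th percentile of these means (equal to an intensity of 0.217). Genotype was the only term in limma 3.58.1 (R 4.3.3, eBayes with an intensity trend), over all 15062 such probes. A log2 change is KO minus WT. The fit was run on simulated data with independent noise, equal spread in both genotypes and few changed probes. These arrays differ from that, and the outcome is not used here.

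Probes were named from GEO's platform annotation, which gives 1 symbol for 15120 probes, several for 38 and does not list 5131. Other pathway genes and cell markers were updated to RefSeq symbols through Entrez identifiers. The members and gene lists were chosen with earlier results of these data known. All member probes are named. From each pathway group, called genes with the largest change are named, up to 4 in each direction. From each marker list up to 3 are named. Stc1, Stc2, Igf2r, Akt1, Akt2, Mtor, Pik3r1, Rheb, Gsk3b, Nr5a1, Gata4, Adgre1 and the dim markers were added after their values were seen. Like patterns were searched for the members with the largest gain and the largest loss, and the 3 most correlated genes are given.

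Over all tested probes, same-numbered KO and WT arrays did not deviate together (correlations of their deviations 0.000489, -0.0208 and -0.00572). A shared batch that moved only some probes could leave these correlations small, so pairing by number is not excluded. The labels state no pairing. Alternatives changed the floor, the transform, the normalization, the filter and the variance prior, left out each array, or added the replicate number as a block.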

Additional observations from a re-analysis of the deposited data

How the results depend on the processing

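The counts of 2 higher and 5 lower IGF system probes were the same in all alternatives but one. With only probes above the median kept, Insr was no longer tested and 1 higher probe was counted. Leaving out each array in turn gave 2 to 2 higher and 5 to 5 lower probes. The brighter Igf1r probe changed sign without KO array 1, ran from -0.13 to 0.09 with an array left out and was -0.17 after either normalization, and was called in none of its 16 alternatives. The changes ran from 0.62 to 0.73 for Igf1, from 0.44 (log2 of intensity plus 0.5) to 0.85 for Insr, from -0.85 to -0.56 for the dimmer Igf1r probe, from -0.80 to -0.55 for Igfbp3, from -1.28 to -1.09 for Igfbp4, from -1.22 to -0.88 for Igfbp5 and from -0.65 to -0.42 for Igfbp7. Among the pathway genes, 7 were higher in the reported fit, against 3 after quantile normalization and 4 after cyclic loess. Over all tested probes, 3625 were higher in the reported fit, against 3043 after quantile normalization and 2970 after cyclic loess. Either normalization lowered the median log2 change of the brightest eighth of all probes, from 0.26 to -0.00 or 0.03. Without 1 array the pathway counts were 6 to 10 higher and 10 to 13 lower. The fit with the replicate number as a block gave 2 higher and 5 lower IGF system probes and 7 higher and 14 lower pathway genes, and changed no call of a member. Igfbp6 and the second Igfbp5 probe lay near the limit for testing and had SEs of 0.45 and 0.51 with no filter.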
